A study of Mus musculus with 24 samples.

Results

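The 10 genes described here mark microglia, the resident macrophages of the central nervous system, and were measured in spinal cord pulldowns of tagged ribosomes. They were chosen by gene name from the 38924 genes listed in every file, and all 10 were found: Cx3cr1, Csf1r, P2ry12, Trem2, Tyrobp, C1qa, C1qb, C1qc, Aif1 and Tmem119. RiboTag mice carry an allele of Rpl22, a protein of the large ribosomal subunit, that gains a haemagglutinin tag in cells with Cre recombinase. Tagged ribosomes are then recovered by antibody together with the mRNA bound to them. The series holds 24 libraries in 4 groups of 6 mice, and all mice were 8 weeks old, on a background labelled B6.CgxB6.129 and heterozygous for the tagged Rpl22 allele. The groups carried Gars C201R on 1 allele (called C201R) or only wild-type Gars, and either a Cre allele at the Chat locus or none. Chat encodes choline acetyltransferase, so Cre is driven in cholinergic cells such as motor neurons and not in microglia. Pulldowns from mice without Cre hold no tagged ribosomes by design, and they serve as the background for RNA of other cells that is carried along. Mice with Cre had 1 altered Chat allele, which mice without Cre lacked.

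Microglia depend on signalling through Csf1r, the receptor for colony-stimulating factor 1 and interleukin 34. Cx3cr1 receives the neuronal chemokine fractalkine (Cx3cl1), and P2ry12 is a purinergic receptor that senses ADP and guides microglial processes. Trem2 binds lipids and apolipoproteins and signals through the adaptor Tyrobp, also called DAP12. C1qa, C1qb and C1qc encode the subunits of C1q, the recognition molecule of the classical complement pathway, which microglia supply in the central nervous system. Aif1 encodes the actin-binding protein Iba1, and Tmem119 is a membrane protein used to tell microglia from blood-derived macrophages. P2ry12 and Tmem119 typically decline in reactive microglia, while Tyrobp, Trem2 and C1q genes typically rise.

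Libraries held 8.90 to 28.3 M estimated counts each. The 10 genes together had 171 to 867 of these counts in a library without Cre and 59 to 194 with Cre, so single genes often rested on fewer than 50 counts. Mitochondrial transcripts took 35.2 to 55.5% of counts without Cre and 1.24 to 17.1% with Cre. The gene model Gm26924, to which reads of ribosomal RNA are assigned, held 43.3% of counts in the C201R mouse 14003-1 and 30.8% in the wild-type mouse 14701-9, both with Cre. Gm26924 also held 36.9% in 14003-4 and 32.9% in 14701-5, both C201R with Cre. A high share of it was therefore not particular to 14003-1 and 14701-9. The mitochondrial shares of 14003-1 and 14701-9 (15.8 and 17.1%) were the highest of the libraries with Cre. Results that rest on these mice are given with and without them. Markers of the targeted cells followed the labels: all 8 cholinergic and motor neuron markers called in each genotype were higher with Cre (of 9 tested in wild type and 8 in C201R), and Chat was higher by 3.59 ± 0.32 (log2, SE) in wild type and 5.09 ± 0.34 in C201R. The labels do not say whether the mice came from separate litters or days, so the p-values below measure only the spread between these mice.

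Promoter windows of 6 of the 10 genes (P2ry12, C1qb, C1qc, Cx3cr1, Aif1 and Trem2) were in the RefSeq table of build GRCm38.p6. The 4 that hold the motif below are shown. Of these genes C1qb and C1qc were called lower with Cre in both genotypes, and Aif1 in neither. Trem2 was called only in wild type, with no filter on low counts or with some single libraries left out. The windows of P2ry12, called in both, and of Cx3cr1 lack the letters. Bases past the start in the P2ry12 window were found in no transcript of that gene, while those of the other windows were. Whether that window sits at the start of P2ry12 is therefore less sure. PU.1, encoded by Spi1, is the factor that sets up macrophage and microglia genes, and the core GAGGAA of its binding motif was searched on both strands (reverse complement TTCCTC) in windows from 250 bases before to 50 bases after the start. It stood in 4 of the 6 windows, and in 28.3% of all 32851 windows of that length. The longer form GAGGAAGT, which contains the core, stood in the C1qc window only, and in 3.2% of all windows. Bases before the start follow, 5′ to 3′ on the gene's strand, with the core motif in capitals. C1qb lies on the minus strand at chr4:136886201-136886300 and its motif begins 30 bases before the start. C1qc, a near neighbour on the same strand, is shown over chr4:136893066-136893164, up to the edge of a GENCODE exon. Its motif is on the opposite strand 193 bases before the start. Aif1 is on the minus strand at chr17:35176053-35176152 (motif 7 bases before the start, opposite strand). GENCODE exons cover 16 of the Aif1 bases shown. Trem2 is on the plus strand at chr17:48346301-48346400 (motif 40 bases before the start, opposite strand).
C1qb: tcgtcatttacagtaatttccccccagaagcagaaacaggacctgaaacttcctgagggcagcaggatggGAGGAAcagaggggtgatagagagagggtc
C1qc: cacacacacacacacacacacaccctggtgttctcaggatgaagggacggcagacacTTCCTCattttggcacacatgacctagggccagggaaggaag
Aif1: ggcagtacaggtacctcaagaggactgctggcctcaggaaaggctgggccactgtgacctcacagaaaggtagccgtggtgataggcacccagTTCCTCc
Trem2: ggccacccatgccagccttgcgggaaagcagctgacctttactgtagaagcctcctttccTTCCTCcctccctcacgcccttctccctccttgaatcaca
A match is a string of letters and not a measured binding site.

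The first question was how far microglia transcripts were depleted when ribosomes of cholinergic cells were pulled down. Every one of the 10 genes had a lower estimate with Cre than without it in both genotypes. In a fit with no filter on low counts, which tests all 10, edgeR's quasi-likelihood test called 7 of 10 lower in wild type and 7 of 10 lower in C201R (Benjamini-Hochberg adjusted p under 0.05 over all genes, the threshold for every call here). Over all genes, 18.4% were called lower in wild type and 15.6% in C201R in that fit. The median log2 change of the 10 genes was -2.95 in wild type and -2.83 in C201R, beside -0.996 and -0.464 over all genes. The standard fit drops genes with few counts, and a gene can pass on the counts of 1 group alone. P2ry12, for example, had 1 to 17 counts per library with Cre and 21 to 71 without in wild type, and 0 to 20 and 4 to 55 in C201R. The share called among the members kept is therefore not independent of the filter. This fit kept 5 of the 10 in wild type and 6 in C201R. It called Csf1r, P2ry12, C1qb and C1qc lower in both genotypes and Cx3cr1 in wild type; 32.8% of all genes tested were called lower in wild type and 26.4% in C201R, and 27.7 and 30.5% were called higher. That split depends on the scaling: in wild type 4682 genes were lower and 3955 higher with TMM, and 2436 and 6891 with library totals, while in C201R 3779 and 4370 became 2277 and 5663. All members tested had an estimate below 0 under each scaling. Levels here are shares of a library, and libraries with Cre also hold mRNA bound to tagged ribosomes. A lower share with Cre therefore measures neither the number of microglia nor the RNA per microglial cell. Between genotypes, fewer microglia and less RNA per microglial cell cannot be told apart in these bulk pulldowns.

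**Figure D1:**
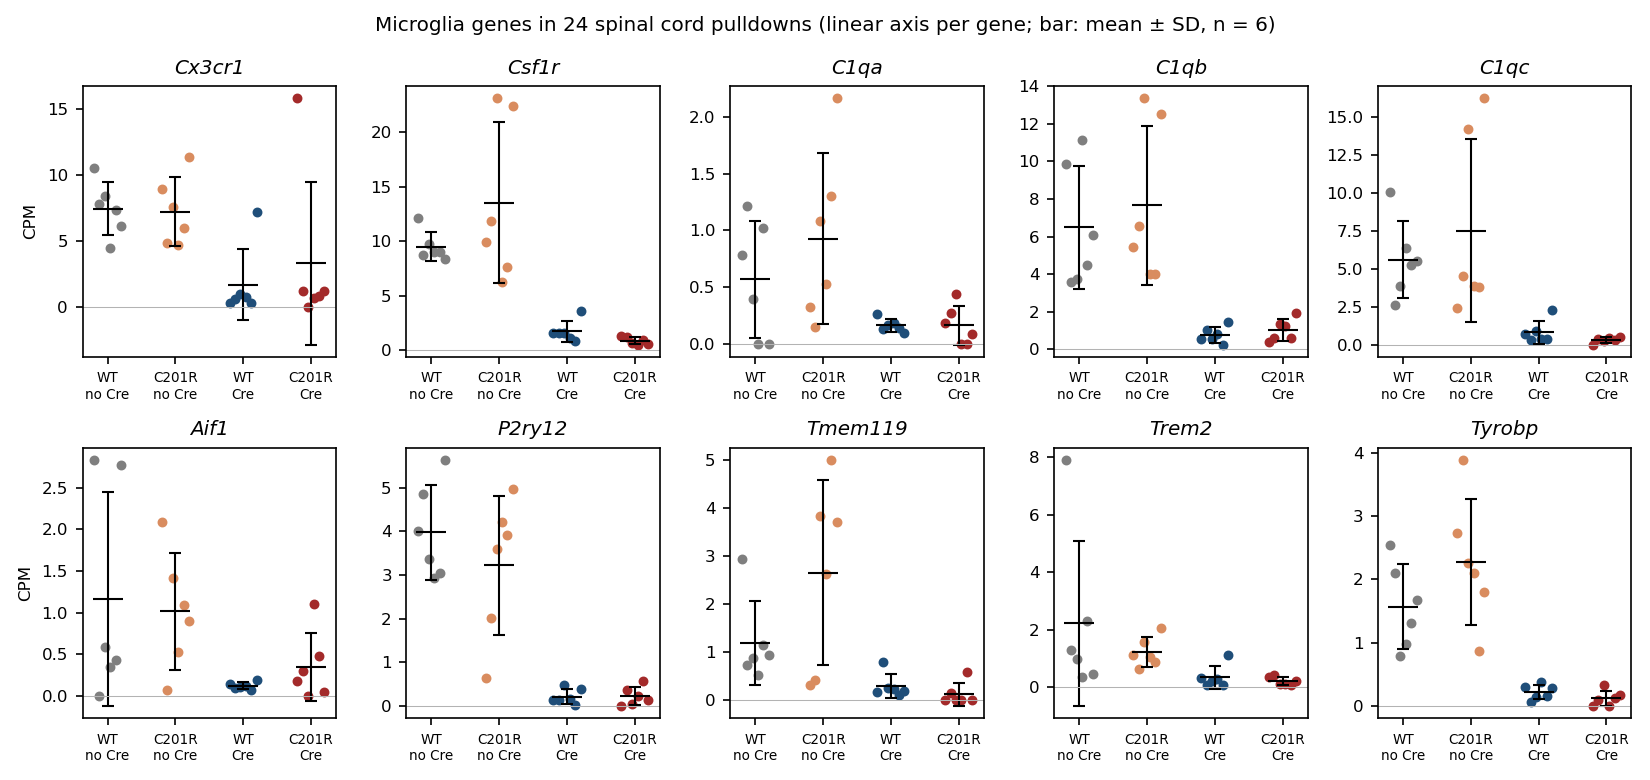
Level of each of the 10 microglia genes in every library, in CPM (counts relative to the library total, scaled by TMM over all 24 libraries) on a linear axis of its own, for wild type and C201R without and with Cre. Points are libraries and bars the mean and SD (n = 6); most points with Cre lie near 0, apart from Cx3cr1 at 7.22 and 15.8 CPM in 1 library of each genotype.

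Summed over the 10 genes, the level was 39.8 ± 11.8 CPM (SD, n = 6) in wild type and 47.3 ± 21.7 in C201R without Cre, and 6.38 ± 5.22 and 6.70 ± 5.69 with Cre. The lowest library without Cre held 29.9 CPM and the highest with Cre 18.2, so the sums did not overlap in either genotype. Without 14701-9 and 14003-1 the means with Cre were 4.3 and 4.4 CPM.

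Csf1r, on which microglia depend for survival, was low in all 12 libraries with Cre. In wild type it ranged from 8.41 to 12.1 CPM without Cre (median 9.02) and from 0.865 to 3.61 with Cre (median 1.58). In C201R it ranged from 6.30 to 23.1 without Cre (median 10.9) and from 0.521 to 1.29 with Cre (median 0.810). Every library with Cre lay below every library without it in both genotypes. The log2 change was -2.84 ± 0.35 (SE, adjusted p = 5e-06) in wild type and -3.86 ± 0.45 (adjusted p = 1.75e-06) in C201R, from edgeR's quasi-likelihood test as for all values below.

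P2ry12, the ADP receptor of surveying microglia, had the lowest estimate of all in wild type. Its level there ranged from 2.92 to 5.63 CPM without Cre (median 3.68) and from 0.0228 to 0.472 with Cre (median 0.149). In C201R it ranged from 0.642 to 4.96 without Cre (median 3.75) and from 0 to 0.569 with Cre (median 0.181). The groups did not overlap, although the C201R mouse 14003-2 without Cre, at 0.642 CPM, stood close to the highest mouse with Cre. P2ry12 fell by 4.43 ± 0.62 on the log2 scale in wild type (adjusted p = 1.69e-05) and by 3.13 ± 0.69 in C201R (adjusted p = 0.000956). Without the wild-type mouse 14702-3, the library with the highest count with Cre, the change was -5.06. Over the group, 36 counts with Cre stood against 260 without it, which is 21.4-fold lower in wild type once divided by the TMM-scaled totals (15.1 to 31.3, exact 95% interval for counting error only, which leaves out the spread between mice). Divided by library totals it is 12.4-fold lower.

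Cx3cr1, the fractalkine receptor, was lowered in most libraries but not in all. In wild type it ranged from 4.51 to 10.6 CPM without Cre (median 7.63), and 5 of 6 libraries with Cre were at 0.288 to 1.03. The sixth, 14701-9, held 7.22 CPM, within the range without Cre. In C201R it ranged from 4.72 to 11.4 CPM without Cre (median 6.79), and 5 of 6 libraries with Cre were at 0.0544 to 1.26. The sixth, 14003-1, held 15.8 CPM, above every library without Cre. Cx3cr1 fell by 3.14 ± 0.67 in wild type (log2, adjusted p = 0.000869) and was not called in C201R (-2.13 ± 0.99, adjusted p = 0.0827). Without 14003-1 the C201R value was -3.16 (adjusted p = 2.81e-05), and without 14701-5, the library with the fewest Cx3cr1 counts, it was -2.01 (adjusted p = 0.0279). Of the 23 alternatives 8 called it in C201R, and the adjusted p ran from 2.89e-06 to 0.344 where there was one. DESeq2 gave no adjusted p for it. Leaving out 14003-1 and leaving out 14003-1 with 14701-9 are the same fit in C201R, and both are counted among the 8. Without 14701-9 the wild-type value was -3.80.

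The receptor Trem2 and its adaptor Tyrobp had too few counts for the standard filter in both Cre comparisons. Tyrobp ranged from 0.791 to 2.54 CPM without Cre and from 0.0647 to 0.370 with Cre in wild type, and from 0.870 to 3.89 and from 0 to 0.326 in C201R. Its groups did not overlap in either genotype, and with no filter Tyrobp fell by 2.90 ± 0.90 (log2, adjusted p = 0.0108) and by 4.01 ± 1.01 (adjusted p = 0.000437). Trem2 had a median of 1.14 CPM without Cre and 0.250 with Cre in wild type, where the mouse 14701-9 with Cre (1.14) overlapped the mice without it (0.354 to 7.92). In C201R it ranged from 0.649 to 2.07 without Cre and from 0.0854 to 0.423 with Cre, with no overlap. With no filter Trem2 fell by 3.30 ± 0.97 in wild type (adjusted p = 0.00678) and was not called in C201R (-2.28 ± 1.14, adjusted p = 0.118). It passed the standard filter in wild type when some single libraries were left out, such as 14702-4, and was then called lower. RSEM gave Trem2 a length that differed between libraries (1056 to 4784 bases) as it divided reads among 4 transcripts, so the TPM of Trem2 moves with that choice.

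Of the C1q subunits, C1qb and C1qc were lowered and C1qa rested on few counts. C1qb ranged from 3.56 to 11.2 CPM without Cre and from 0.250 to 1.43 with Cre in wild type (medians 5.31 and 0.680), and from 4.02 to 13.4 and from 0.368 to 1.91 in C201R (medians 6.01 and 0.909). C1qc ranged from 2.59 to 10.1 and from 0.323 to 2.28 in wild type (medians 5.35 and 0.531), and from 2.41 to 16.2 and from 0 to 0.477 in C201R (medians 4.20 and 0.353). For both genes every library with Cre lay below every library without it in each genotype. C1qb fell by 3.27 ± 0.52 in wild type (log2, adjusted p = 5.52e-05) and by 2.79 ± 0.53 in C201R (adjusted p = 0.00026). C1qc fell by 3.34 ± 0.61 (adjusted p = 0.000207) and by 4.11 ± 0.64 (adjusted p = 3.36e-05). Levels that did not overlap in this direction were also seen for Csf1r, P2ry12 and Tyrobp, which made 5 of 10 members in wild type and, with Trem2, 6 of 10 in C201R, beside 7.44 and 7.47% of all genes with a count in these libraries.

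C1qa lies beside C1qb and C1qc in a row of 3 adjacent protein-coding genes, and its protein chain is assembled with theirs. Its deposited TPM, a level per transcript length that allows genes to be compared, was 0.682 ± 0.667 in wild type without Cre, against 7.53 ± 3.78 for C1qb and 5.71 ± 2.48 for C1qc (SD, n = 6). Over 6 libraries each, C1qa had 34 counts without Cre and 32 with Cre in wild type, and 56 and 20 in C201R. Divided by the TMM-scaled totals, it was 3.16-fold lower with Cre in wild type (exact 95% interval 1.89 to 5.28) and 6.38-fold lower in C201R (3.77 to 11.2), for counting error only. With library totals the ratios were 1.82 and 4.53. The fit with no filter did not call it (-1.74 ± 1.24, adjusted p = 0.261, and -2.36 ± 1.44, adjusted p = 0.213). In C201R it was called when only library series 2, the larger of 2 runs of library numbers, was fitted (-3.09, adjusted p = 0.0353).

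Aif1 and Tmem119, the remaining markers, were also thinly counted. Aif1 ranged from 0 to 2.84 CPM without Cre in wild type, and the mice 14004-4 and 14702-6 held 29 and 35 of its 77 counts there. With Cre it stayed between 0.0683 and 0.190 CPM in wild type but reached 1.10 in the C201R mouse 14003-4. Its groups overlapped in both genotypes, and it was not called (with no filter -2.96 ± 1.38, adjusted p = 0.0907, in wild type; -1.67 ± 0.88, adjusted p = 0.113, in the standard C201R fit). Tmem119 was at 0 in 4 of 6 C201R libraries with Cre and held 21 of its 26 counts there in the mouse 14004-5. With no filter it fell by 3.60 ± 1.02 in C201R (adjusted p = 0.00214) and was not called in wild type (-1.85 ± 0.95, adjusted p = 0.121), where library series 2 alone called it (-2.0, adjusted p = 0.0412).

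**Figure D2:**
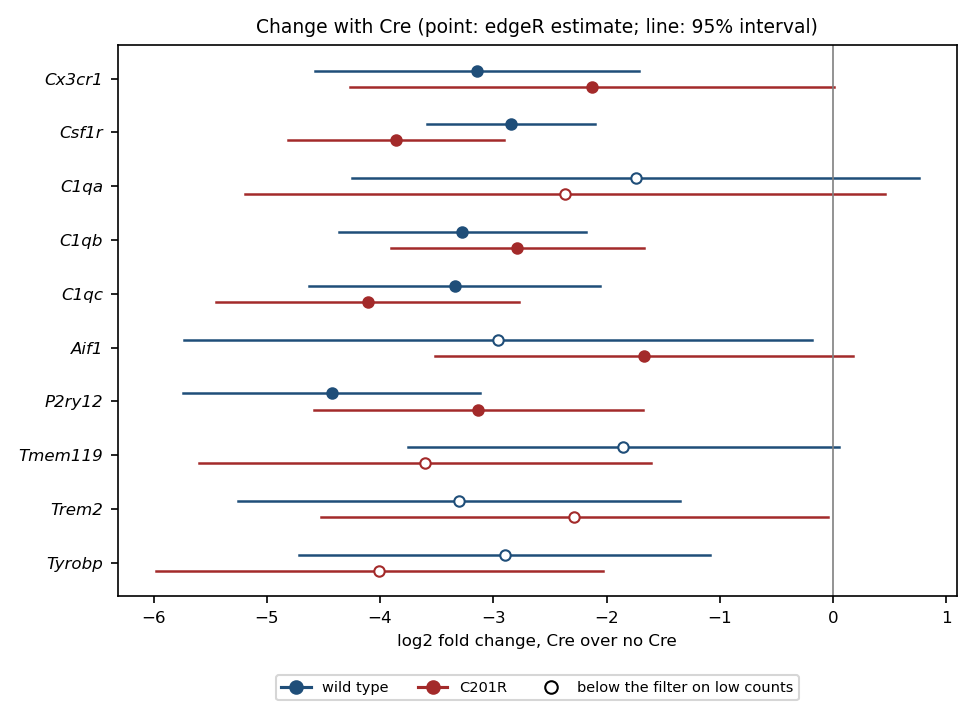
Log2 fold change of each microglia gene with Cre over without Cre, as edgeR's estimate (point) with its 95% interval (line), in wild type and C201R. Open points are genes that the filter on low counts dropped and come from the fit with no filter; every point lies below 0, from -4.43 to -1.67, and intervals that cross 0 belong to C1qa (both genotypes), Tmem119 (wild type), Aif1 and Cx3cr1 (C201R).

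By deposited TPM, C1qb was the highest of the 10 in each of the 4 groups, and C1qc and Tyrobp came next in 3 of them. In wild type without Cre the order was C1qb, C1qc (5.71), Tyrobp (4.24 ± 1.98), Aif1 (3.07 ± 3.69), Csf1r (2.64 ± 0.37), Cx3cr1 (2.24 ± 0.56), P2ry12 (2.24 ± 0.91), Trem2 (1.78 ± 3.31), C1qa and Tmem119 (0.605 ± 0.408). Every pair of neighbours in this order differed by less than the larger of their SDs. In C201R without Cre C1qb (9.87 ± 7.90), C1qc (8.69 ± 8.44) and Tyrobp (6.38 ± 3.92) led again. With Cre all 10 genes had a mean under 2 TPM, C1qb being at 1.75 ± 0.74 in wild type and 1.84 ± 1.12 in C201R. P2ry12 moved from the seventh place to the last in wild type (0.242 ± 0.224 with Cre).

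Whether the depletion differed between genotypes was tested as an interaction over all 24 libraries. None of the 9 members tested was called, beside 0.13% of the 16109 genes tested, and 2 had an unadjusted p under 0.05, beside 9.08% of genes. These were Csf1r, with a further -1.50 ± 0.52 in C201R (unadjusted p = 0.00729, adjusted p = 0.346), and C1qc with -1.67 ± 0.79 (unadjusted p = 0.0428, adjusted p = 0.526). Without the wild-type mouse 14701-9 these estimates were -1.16 and -1.02. DESeq2, limma-voom and the fit with no filter (0.049% of genes called) also called 0 members. The 95% intervals ran from -1.35 to 2.91 for Cx3cr1 and from -1.15 to 2.42 for P2ry12, so for these genes they include a log2 difference of 1 in either direction.

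The second question was whether the microglia genes differed between C201R and wild type where RNA of all cord cells is sampled, in the libraries without Cre. None of the 10 genes was called, and none of the 8 that passed the filter had an unadjusted p under 0.05. Over all 14400 genes tested, 0% were called and 3.16% had an unadjusted p under 0.05. edgeR with no filter, DESeq2 and limma-voom called 6 (0.0194%), 2 and 1 genes, and none was a member. Every member's values overlapped between the genotypes, while 0.0646% of genes with a count were higher and 0.042% lower in C201R with no overlap.

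Among the receptors, Cx3cr1 had the estimate closest to 0. It differed by -0.06 ± 0.33 (log2, SE; 95% interval -0.74 to 0.62) and Csf1r by 0.48 ± 0.32 (-0.18 to 1.14). P2ry12 differed by -0.39 ± 0.48 (-1.38 to 0.60). The upper bound for Cx3cr1 lay under a log2 change of 1, and that for Csf1r lay above it. Tyrobp differed by 0.55 ± 0.55 and Trem2 by -0.84 ± 0.73, so the adaptor and the receptor had estimates of opposite sign. The Trem2 value rested on the wild-type mouse 14004-4, which held 81 of 133 counts; without it the estimate was 0.16. The C1q genes had estimates of 0.25 ± 0.38 (C1qb) and 0.36 ± 0.41 (C1qc), and 0.82 ± 1.17 for C1qa with no filter. Tmem119 had the highest estimate, 0.96 ± 0.68 (-0.45 to 2.37), from 156 counts in C201R and 74 in wild type. Aif1 was at -0.18 ± 1.04 with no filter.

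**Figure D3:**
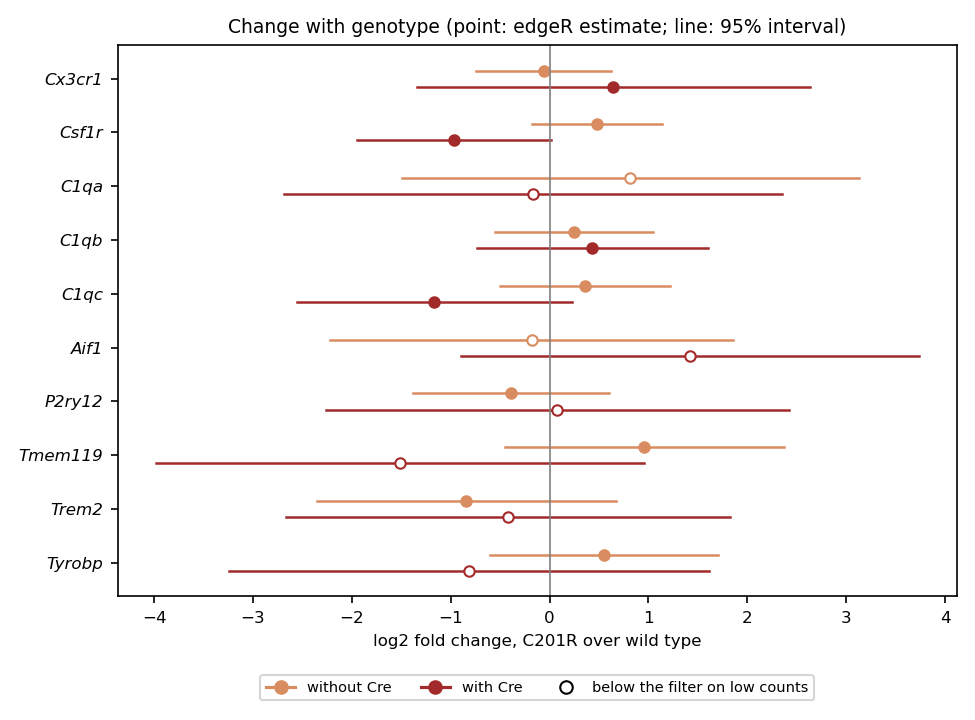
Log2 fold change of each microglia gene in C201R over wild type, as edgeR's estimate (point) with its 95% interval (line), in libraries without and with Cre. Open points are genes dropped by the filter on low counts and come from the fit with no filter; every interval without Cre includes 0, Cx3cr1 being at -0.06 and Csf1r at 0.48.

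The spread within C201R without Cre came largely from 2 mice. Csf1r stood at 23.1 CPM in 14004-8 and 22.5 in 14702-9, against 6.30 to 11.8 in the other 4. C1qc stood at 14.2 and 16.2 against 2.41 to 4.54, and C1qb at 13.4 and 12.5 against 4.02 to 6.56. Among wild-type mice 14004-4 was the high one, with a sum over the 10 genes of 63.6 CPM against 32.8 to 37.7 in the others, beside 72.1 and 78.2 in the 2 C201R mice. The same 3 libraries held many counts of other cells of the vasculature and blood. Their summed blood cell markers (7 haemoglobin and red cell genes) were at 1489, 1015 and 946 CPM, against 104 to 254 in 8 of the other 9 libraries without Cre and 1657 in 14003-2. Their summed monocyte and neutrophil markers were at 80.6, 60.2 and 73.5 CPM against 7.85 to 50.2 elsewhere. Their endothelial and mural markers were at 536, 460 and 372 CPM against 207 to 363. They were also the 3 highest without Cre in other lists. Other homeostatic microglia genes summed to 404, 454 and 402 CPM against 229 to 329. Proliferation genes summed to 80.6, 96.4 and 77.6 against 28.2 to 58.3, and ligands and partners of the members to 168, 203 and 184 against 81.5 to 166. Astrocyte, oligodendrocyte and border macrophage sums did not set these 3 libraries apart. In 14003-2 blood markers were high and the microglia sum was 34.0 CPM. What part blood or vascular material has in the microglia levels was not tested.

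Other microglia genes were read from lists. Of 25 other homeostatic microglia genes, 20 were tested without Cre and 0 were called; 16 had an estimate above 0, with a median of 0.34 beside -0.04 over all genes, and 2 had an unadjusted p under 0.05. Of 25 activation genes, such as lysosomal and lipid-handling genes induced in reactive microglia, 17 were tested and 0 called (median 0.07, 9 above 0 and 8 below). Apoe, the lipid carrier recognised by Trem2, differed by 0.56 ± 0.39, and Spp1 (osteopontin) by -0.65 ± 0.43. Of 15 cytokines and inflammatory mediators, 4 had enough counts to be tested and none was called. All 4 had an estimate above 0 (median 0.76), none with an unadjusted p under 0.05. The rest were too scarce to be judged at this depth, and the sum over the list was 8.62 ± 4.23 CPM in wild type and 12.8 ± 3.51 in C201R. Of 8 proliferation genes, 6 were tested and 0 called, with Mki67 at 0.42 ± 0.30. All 6 had an estimate above 0 (median 0.45), none with an unadjusted p under 0.05. Complement beyond C1q had 0 of 8 tested called (median 0.1, 5 above 0 and 3 below).

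With Cre, C201R and wild type were compared for what remained of the microglia genes. None of the 4 members that passed the filter was called, beside 4.11% of 14634 genes tested, and none of the 10 was called with no filter, beside 1.61% of genes. Csf1r was at -0.97 ± 0.46 (unadjusted p = 0.0522, adjusted p = 0.278), with 273 counts in wild type and 114 in C201R. C1qc was at -1.17 ± 0.65 (adjusted p = 0.365), with 117 counts and 46. Without 14701-9, the highest wild-type library with Cre for both genes, the estimates were -0.65 for Csf1r and -0.66 for C1qc. C1qb had an estimate of 0.43 ± 0.55. Cx3cr1 was at 0.65 ± 0.93, and this sign came from 1 library, since without 14003-1 it was -0.54 and without 14701-9 it was 1.45. Among listed genes, 1 of 18 other homeostatic microglia genes tested and 1 of 6 complement genes were called, beside 4.11% of all genes. None was called of 17 activation genes, 7 partner genes and 4 cytokine genes tested. Cst3, a protease inhibitor abundant in microglia but made by many cells, rose by 0.63 ± 0.16 (adjusted p = 0.0403). Cd55, a complement inhibitor on cell surfaces, fell by 1.27 ± 0.13 (adjusted p = 4.8e-05). Unlike the 10 genes, Cd55 was itself called higher with Cre in both genotypes. The Cst3 call held under 8 of 23 alternatives (adjusted p from 0.00598 to 0.634) and the Cd55 call under 23 of 23.

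Cx3cr1 also stood out in its share of the counts of the 10 genes. It made up 10.5 to 26.4% of them in the 12 libraries without Cre and 1.7 to 25.9% in 10 of the 12 with Cre. In 14701-9 it made up 76 of 177 counts (42.9%, Wilson 95% interval 35.9 to 50.3%), and in 14003-1 it made up 86 of 99 (86.9%, 78.8 to 92.2%). In 14003-1 C1qc, P2ry12, Tmem119 and Tyrobp were at 0, which allows up to 3 counts each. Csf1r had 7 counts there, which is 1.29 CPM, the highest of its group (the next was 1.18). In 14701-9 Csf1r (3.61 CPM), C1qc (2.28) and Trem2 (1.14) were also the highest of their group. Border macrophage markers, which are genes of macrophages of the meninges and vessel walls, summed to 13.6 CPM in 14003-1 and 7.41 in 14701-9, the highest of each group. This was not particular to macrophages. The same mice were highest of their groups in endothelial and mural markers (94.1 and 91.9 CPM), astrocyte markers (969 and 1019) and other homeostatic microglia genes (398 and 322). In oligodendrocyte and blood cell markers 14701-9 was the highest of its group and 14003-1 was not. The part of the composition of these 2 libraries in their Cx3cr1 level was not tested.

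**Figure D4:**
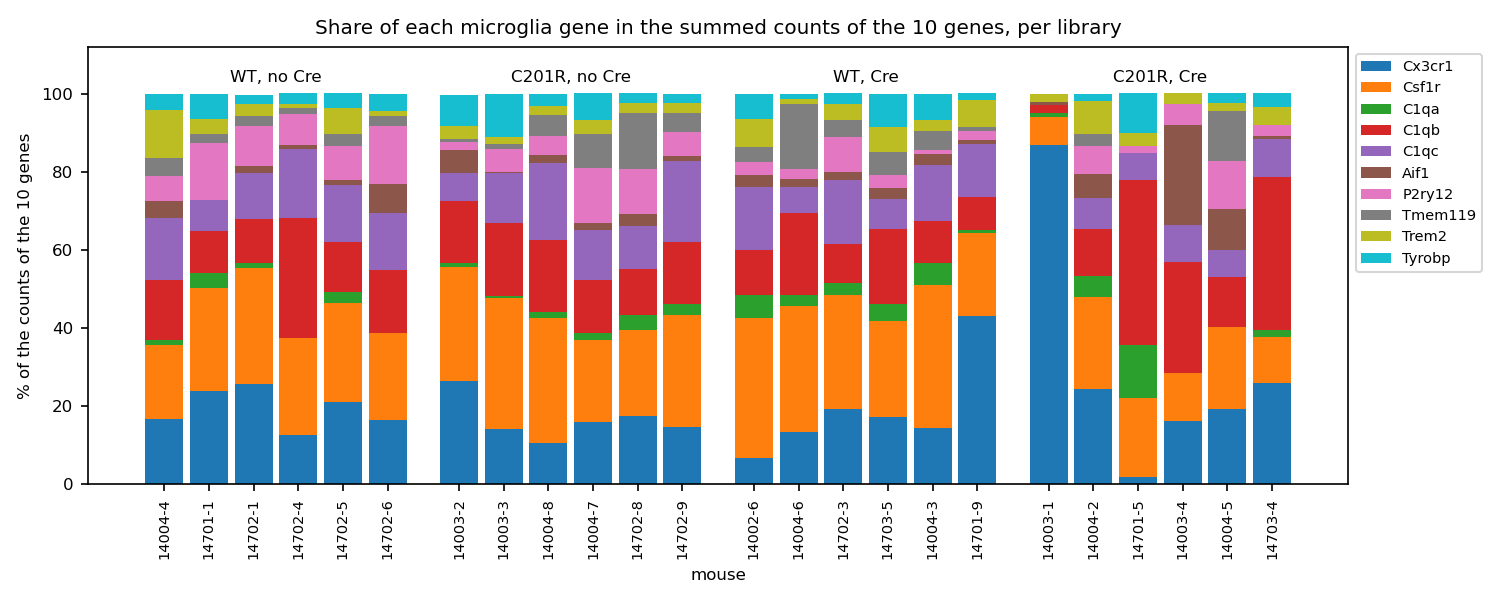
Share of each of the 10 genes in their summed counts (stacked bars, percent), per mouse and group. Cx3cr1 (lowest segment) fills 86.9% of the bar of 14003-1 and 42.9% of that of 14701-9, and 1.7 to 26.4% of the other bars.

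Among the partners of these receptors and of C1q, with Cre 1 list member was called higher in both genotypes. This was Cx3cl1, the neuronal ligand of Cx3cr1, which rose by 1.44 ± 0.19 in wild type (log2, adjusted p = 1.04e-05) and 1.29 ± 0.18 in C201R (adjusted p = 1.19e-05). Ligand and receptor thus moved in opposite directions in wild type, where both were called. Apoe fell by 3.24 ± 0.40 and 3.25 ± 0.36 (adjusted p = 8.56e-06 and 1.52e-06). Inpp5d, the lipid phosphatase SHIP1 that acts beneath Trem2 and Tyrobp, fell by 4.37 ± 0.58 (adjusted p = 9.82e-06) and 2.11 ± 0.65 (adjusted p = 0.0104). Serping1, the inhibitor of C1r and C1s, fell by 2.01 ± 0.44 in C201R (adjusted p = 0.000903), and C1s, a protease bound to C1q, fell by 3.22 ± 0.66 in wild type (adjusted p = 0.000568). In all, 9 of 13 list genes were tested in wild type (6 lower, 1 higher) and 8 in C201R (3 lower, 1 higher). Over all genes tested, 32.8% were lower and 27.7% higher in wild type, and 26.4 and 30.5% in C201R.

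The other homeostatic microglia genes followed the 10. In wild type 16 of 20 tested were lower and 2 higher (median -2.50), and in C201R 15 of 20 were lower and 2 higher (median -2.54), beside medians of -0.10 and 0.07 over all genes. Siglech, a sialic-acid-binding receptor of microglia, fell by 3.96 ± 0.58 in wild type, and Selplg, a selectin ligand, by 4.23 ± 0.61 in C201R. Ctss (cathepsin S) fell by 3.58 ± 0.42 and 2.93 ± 0.42. The 2 higher genes were Lgmn, a lysosomal protease (2.07 ± 0.24 in C201R), and Itgb5, an integrin, and the list is not exclusive to microglia. With library totals in place of TMM, 11 were lower and 3 higher in wild type and 13 and 2 in C201R. The activation list held genes called in both directions, with 8 lower and 5 higher of 17 in wild type, and 7 lower and 6 higher of 17 in C201R, while with library totals 7 were lower and 8 higher, and 6 and 7. Over all genes 32.8% were lower and 27.7% higher in wild type and 26.4 and 30.5% in C201R, and the shares called higher in the list lay near these. Its higher genes included Spp1 (3.68 ± 0.25 in C201R), which motor neurons also express, and the lysosomal protease Ctsd (1.89 ± 0.18 in wild type). Its lower genes included Axl, a receptor kinase for dying cells (-3.39 ± 0.43 and -3.59 ± 0.45), and Lyz2, lysozyme of myeloid cells (-3.15 ± 0.38 and -3.04 ± 0.43).

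Complement genes beyond C1q also split. C3 (-2.28 ± 0.26 and -3.14 ± 0.39) and C4b (-3.79 ± 0.37 and -3.11 ± 0.41) fell in wild type and C201R. The complement inhibitor Cd59a rose by 2.23 ± 0.26 and 2.99 ± 0.22, and Cd55 was called higher in both. Of 7 tested, 4 were lower and 2 higher in wild type and 3 lower and 2 higher in C201R. Over all genes 32.8% were lower and 27.7% higher in wild type and 26.4 and 30.5% in C201R, and the list's share called higher lay near these.

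Most lists of markers of other cord cells were lower with Cre as well. Of the glia lists, 9 of 10 astrocyte markers were lower in wild type and 8 of 10 in C201R (medians -3.31 and -3.29), and 10 of 10 oligodendrocyte markers in each (medians -3.41 and -3.29). Endothelial and mural markers were lower in 9 of 9 tested (medians -3.14 and -2.83). Border macrophage markers were lower in 4 of 4 tested and 5 of 5 (medians -3.32 and -3.05), and blood cell markers in 6 of 6 and 7 of 7 (medians -2.97 and -2.55). Of the monocyte and neutrophil markers, 2 were lower (S100a8 and S100a9) of 3 tested in wild type and of 4 in C201R, and Lcn2 was higher in wild type (2.29 ± 0.62, adjusted p = 0.00443). The 1 astrocyte marker called higher was S100b, a calcium-binding protein. Over all genes tested, 32.8% were called lower in wild type and 26.4% in C201R, and genes of these lists could also pass the filter on 1 group alone. Whether the microglia genes differed in depletion from these lists was not tested.

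**Figure D5:**
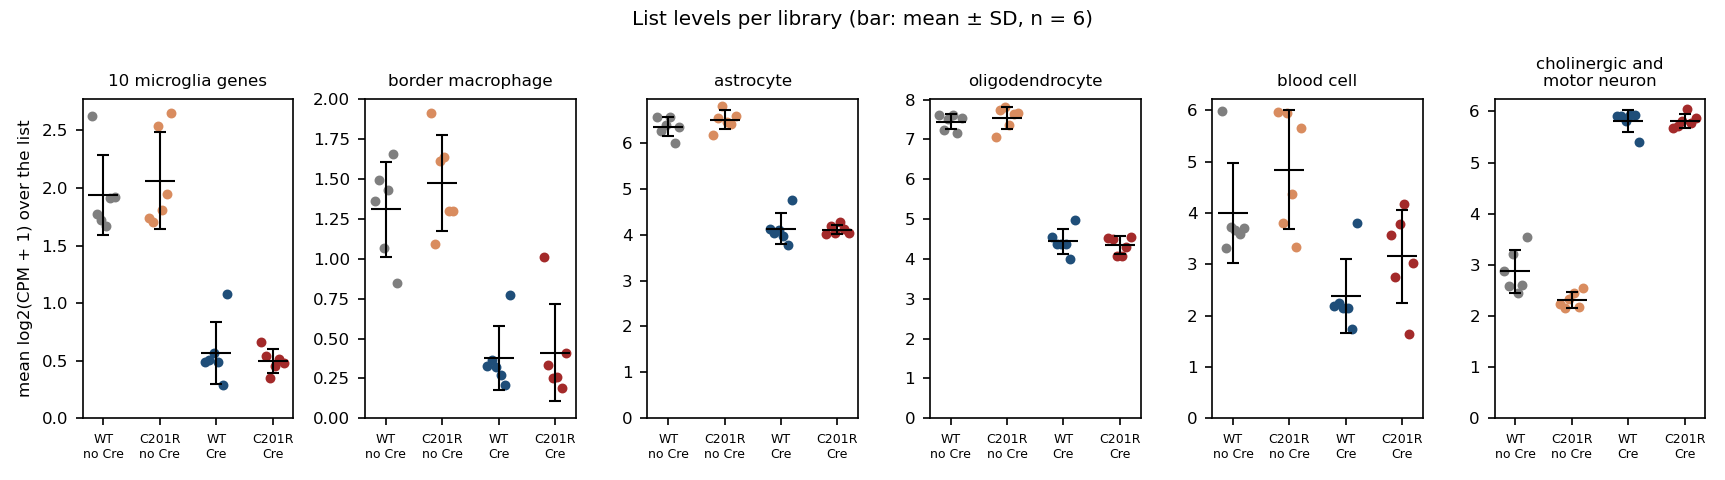
Mean log2(CPM + 1) over the genes of 6 lists in every library, by group; points are libraries and bars the mean and SD (n = 6), each panel with its own axis from 0. The 10 microglia genes fell from 1.94 and 2.06 without Cre to 0.57 and 0.50 with Cre, while cholinergic and motor neuron markers stood at 2.88 and 2.32 without and 5.82 and 5.81 with Cre.

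The genes whose level over all 24 libraries was most like the mean of the 10 were Sparc, Cnp, Vcam1, Apod and Atp1b2, out of 13769 candidates. The libraries with and without Cre form separate clusters, so that likeness mostly reflects the difference between them. With each gene centred within its group, Pearson's r over the 24 libraries was highest for Cnp (0.876), Ptgds (0.865), Sparc (0.851), Vcam1 (0.835), Acot1 (0.825), Mxra8 (0.815), Atp1b2 (0.803) and Id1 (0.803), as a description with no test. The genes of a library share its depth and composition, and both differed between libraries. With 0.1 in place of 1 added to CPM before the logarithm, Vcam1, Mxra8, Atp1b2 and Id1 left these 8 genes, and Olig1, Igfbp7, Apoe and Apod entered. Cnp is a myelin enzyme of oligodendrocytes, and Sparc a matrix protein made by several kinds of cell.

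Among the 45 pairs of the 10 genes themselves, Pearson's r over the 12 libraries without Cre had a median of 0.32 (-0.38 to 0.87) and was above 0 in 40 pairs, after centring within groups. Over the 12 libraries with Cre the median was 0.02 (-0.64 to 0.84) with 25 pairs above 0. Counts per gene were low with Cre, and these values are a description with no test.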

How the data were processed

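The deposited files held estimated counts per gene (expected counts) and TPM (a level per transcript length). The submitters' processing notes name RSEM 1.2.12 and Bowtie2 2.2.0 as the authors' tools. The build is not given in the sources used here. Of 38924 gene identifiers, 37607 matched the GENCODE names at hand. Expected counts were rounded to whole numbers for testing. Deposited TPM was used only to compare levels between genes.

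Each pair of groups was fitted on its 12 libraries, and the interaction on all 24. The main test was edgeR's quasi-likelihood F test with robust dispersions (edgeR 4.0.16, R 4.3.3), after the low-count filter filterByExpr and TMM scaling. The fit had a term for library series, the 2 runs of library numbers in the descriptions (7 and 17 libraries). P-values were Benjamini-Hochberg adjusted over all genes tested. Standard errors were taken from F, as log2 change over its square root. CPM was scaled over all 24 libraries. Ratios, floors of 3 counts and Wilson or exact intervals cover counting error only, and PCR copies are not independent molecules. The fits were run on simulated data in which a small set of genes changed, as many up as down. Many more genes differed in the Cre comparisons, so the simulation cannot judge the choice of scaling there. No pair of libraries in a group agreed within sampling noise.

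The members and the 14 gene lists were chosen with earlier results of these data known. Named genes are the 10 members, up to 4 called genes with the smallest p from each list (or else the 2 most abundant), and the genes most like the members. Itgb5, S100b and the single mice compared were chosen after their values were seen. A gene that the rule names is not reported here. Alternatives were RLE scaling, library totals with and without mitochondrial transcripts and Gm26924, no filter, a mean of at least 50 counts, DESeq2 1.42.0, limma-voom (limma 3.58.1), no series term, series 2 only, the mouse number prefix as a block, leaving out 14003-1 and 14701-9, and leaving out each library.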

Additional observations from a re-analysis of the deposited data

Results flagged for a closer look

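Within each group of 6 mice, the highest or lowest library was compared with its nearest neighbour, for each of the 10 genes and for their sum. In 13 of 44 sets of 6 values the gap was wider than Dixon's critical value allows. For normally distributed values chance gives about 1 in 20 sets. CPM of low counts, used here without a logarithm, need not follow that distribution, and sets that share a library are not independent. The 13 are therefore not a measured excess over chance. Every one of the 13 was a highest value.

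Among wild-type mice without Cre, 14004-4 stood apart in Csf1r (12.1 CPM, next 9.79), Tmem119 (2.93, next 1.16), Trem2 (7.92, next 2.33) and the sum of the 10 genes (63.6, next 37.7). Its summed blood cell markers were at 1489 CPM. Among wild-type mice with Cre, 14701-9 stood apart in Cx3cr1 (7.22 CPM, next 1.03), Csf1r (3.61, next 1.62), C1qc (2.28, next 0.888), Trem2 (1.14, next 0.317) and the sum (16.8, next 5.39). In that group 14004-6 stood apart in Tmem119 (0.808 CPM, next 0.250).

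Among C201R mice with Cre, 14003-1 stood apart in Cx3cr1 (15.8 CPM, next 1.26) and, through it, in the sum (18.2, next 4.98). In that group 14004-5 stood apart in Tmem119 (0.598 CPM, next 0.151). The causes were not tested.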

How the results depend on the processing

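Of the estimates of single members, 313 under other settings and 478 with a library left out kept their direction and call, 3 and 10 changed sign and 6 and 2 were newly called. Every member called with Cre in the standard fit stayed called and lower under each alternative in which it was tested. Cx3cr1 in C201R, not called there, is described above. No member was called between genotypes or in the interaction under any alternative. Library totals in place of TMM moved the median of all genes from -0.10 to 0.84 in wild type, from 0.07 to 0.65 in C201R and from -0.01 to -0.27 between genotypes with Cre (24 higher and 8 lower, against 335 and 266). In wild type the median member change with Cre was -2.38 with library totals and -2.95 with no filter, and 2 members were called under the filter of 50 counts, where only 2 were tested. In C201R the members called were 7 with no filter, 2 of 3 tested at 50 counts, 8 in library series 2 alone and 7 without 14003-1 and 14701-9. The median there was -2.36 with library totals, -3.40 in series 2 and -3.46 without those mice. Fewer or more members were tested in these settings, and the cause of other shifts was not tested.

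Genes called between genotypes without Cre numbered 0, against 6 with no filter, 2 with DESeq2 and 1 with limma-voom. With Cre, 601 genes became 32 with library totals, 215 (145 higher, 70 lower) without mitochondrial transcripts and Gm26924 in them, 1316 with DESeq2, 2004 with limma-voom, 291 with no series term, 1370 in series 2 and 1950 without 14003-1 and 14701-9. Their median member change of -0.27 became -0.001 with limma-voom, 0.64 in series 2 and 0.06 without those mice. The interaction's 21 genes became 1 and 11 with the library totals, 33 at 50 counts, 113 with DESeq2, 79 with limma-voom and 43 without those mice. Its median member change of 0.24 became -0.34 with no filter, -0.32 at 50 counts, -0.16 in series 2 and -0.19 without those mice, and its C1qb estimate became -0.06 with library totals. The sums of the 10 genes without Cre were 68.5 and 79.5 CPM when mitochondrial transcripts and Gm26924 were left out of the totals, and those with Cre were 10.5 for wild type and 9.71 for C201R (6.38 and 6.70 with TMM), so that their order turned.

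Leaving out each library gave a median member change with Cre of -3.59 to -3.01 in wild type and -3.58 to -2.85 in C201R, with 4 to 7 members called in C201R. Between genotypes without Cre, Cx3cr1 ran from -0.25 to 0.07 and Trem2 from -1.06 to 0.16. With Cre, the genes called ran from 170 (without 14703-4) to 936 (without 14003-1), the median member change from -0.74 to 0.05, Cx3cr1 from -0.54 to 1.45 and C1qb from -0.0006 to 0.74. In the interaction, 11 to 37 genes were called, the median member change ran from -0.96 to 0.46, Cx3cr1 from -0.60 to 1.82, C1qb from -0.08 to 0.57 and Trem2 from -0.71 to 1.00.

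Groups share mouse number prefixes, but the labels do not say what a prefix marks. Same-prefix mice had r above 0.1 in 5 of 6 pairs between genotypes with Cre (0.004 to 0.461, median 0.194; 9 of 30 pairs of different prefix, median 0.025), in 2 of 8 and 1 of 7 pairs of the Cre comparisons and in 0 of 10 without Cre, so they were not taken as paired. With the prefix as a replicate block, genes called were 75 between genotypes with Cre, 1 without Cre and 6 in the interaction. P2ry12 without Cre was then at 0.16 and Cx3cr1 with Cre at -0.07. The block changed no member's call. The filter of 50 counts left no member to test between genotypes with Cre.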
